A study of Mus musculus with 14 samples.

Results

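The spots compared here were those richest and those poorest in lymphocyte transcripts within each of 3 wild-type mouse spleen sections profiled by spatial transcriptomics. Every spot over tissue with at least 1000 detected genes was ranked by its lymphoid share, the percentage of its unique molecular identifiers (UMIs, the counted probe molecules) that came from 12 genes. These were the B-cell genes Cd79a, Cd79b, Ms4a1, Ighm, Ighd and Cd22 and the T-cell genes Cd3d, Cd3e, Cd3g, Trac, Lck and Tcf7. The spots of each section were cut by rank into 4 equal bins, from the lowest (bin 1) to the highest share (bin 4), of which the highest was proposed as white pulp and the lowest as red pulp. Each of these 2 bins held 253 spots in the purchased spleen, 356 in wild-type spleen 1 and 411 in wild-type spleen 2, so that 2040 of the 4084 passing spots of these spleens entered the main comparison. The whole series held 17319 spots over tissue in 14 sections, of which 15985 passed the same minimum.

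One section came from a purchased wild-type adult spleen, of the strain C57BL/6. The other two came from wild-type, untreated offspring of a mating between C1qa heterozygotes, whose age is 3 months by the labels and 2 months elsewhere in the sources used here. All spleens were fixed in formalin, embedded in paraffin and read with the probe-based Visium assay, in which each spot is a small region holding several cells. Each section is labelled as a spleen of its own and was counted as 1 animal, so n = 3 throughout. The sex of each animal is not given in the sources used here. Animal source, the list of features counted, the array barcodes and the counting software differed together between the purchased and the cross spleens and cannot be told apart. Values for the 3 sections are always given in the order purchased, wild-type 1, wild-type 2.

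The spleen holds lymphoid tissue, the white pulp, inside a blood filter, the red pulp. In white pulp, T cells gather around the central arterioles and B cells in follicles, and a marginal zone of specialised B cells and macrophages lies at the border. Red pulp consists of cords and venous sinuses in which macrophages take up old red cells and recycle their iron, in which plasma cells (the antibody-secreting descendants of B cells) lodge, and in which, in the mouse, red cells, granulocytes and platelets are also made.

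The medians of the lymphoid share were 1.11, 0.541 and 0.759% in the lowest bin and 2.30, 1.53 and 1.97% in the highest. At the cuts, the last spot inside the highest bin had a share of 1.88104, 1.36505 and 1.6009% and the first spot outside it 1.8788, 1.36487 and 1.60033%. The last spot inside the lowest bin had 1.31948, 0.816618 and 0.985222% and the first outside it 1.32014, 0.81782 and 0.985525%. The cuts thus fell within a continuous range of shares and separated no distinct classes of spot.

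Checked against the markers, the highest bin did not match the description of white pulp in the purchased spleen and wild-type spleen 2. Cd3e, a chain of the T-cell receptor complex, stood at 267, 110.5 and 426 CPM (UMIs scaled to a total of 1000000 per summed bin, here over all genes) in the lowest bin and at 187, 163 and 302 CPM in the highest. It was therefore lower in the highest bin in 2 of 3 sections. Cd79a, part of the B-cell receptor, went from 1351, 909 and 1026 CPM to 1816, 2568 and 2223 CPM, and in the purchased spleen and wild-type spleen 2 it was highest in bin 3 rather than bin 4, at 2469.6 and 2419 CPM. Hmox1, the haem-degrading enzyme of red pulp macrophages, went from 749, 1674 and 800.2 CPM in the lowest bin to 443, 654 and 643 CPM in the highest (for Hmox1 the 12 rule genes are left out of the total). The groups are therefore called by the rule, the highest and the lowest bin, and not white and red pulp.

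One gene carried much of the share, though in wild-type spleen 1 its part was no larger in the highest bin than in the lowest. Ighm, the heavy chain of IgM, which B cells make as a receptor and plasma cells secrete in large amounts, made up 76.6, 48.9 and 68.0% of the lymphoid UMIs of the highest bin and 50.5, 50.03 and 37.6% of those of the lowest. Its level went from 6051, 2825 and 2717 CPM to 23904, 7862 and 15879 CPM. The ratio of the highest to the lowest bin was 3.95, 2.78 and 5.84 for Ighm. For the other 5 B-cell genes it lay between 1.31 and 1.47 in the purchased spleen, between 2.82 and 3.53 in wild-type spleen 1 and between 2.17 and 2.69 in wild-type spleen 2. The 6 T-cell genes had ratios of 0.701 to 0.884 in the purchased spleen, 1.13 to 1.95 in wild-type spleen 1 and 0.651 to 1.24 in wild-type spleen 2. The 1.13 and the 1.24 belong to Tcf7, which was low in the cross spleens. It read 3.29 and 3.73 CPM in the lowest and highest bin of wild-type spleen 1, and 8.36 and 10.4 CPM in wild-type spleen 2. The other T-cell genes of wild-type spleen 2 had ratios of 0.651 to 0.782. These values describe the rule and were not tested.

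Ranking the same spots by the 11 genes other than Ighm, a ranking chosen after seeing the data, moved many spots across the range. Of the 1020 spots of the highest bin, 433 (42.5%) were again in the highest bin, 177 (17.4%) in bin 3, 205 (20.1%) in bin 2 and 205 (20.1%) in the lowest. By section, 34.8, 6.46 and 22.9% of them fell into the lowest bin and 23.7, 63.5 and 35.8% stayed in the highest. Of the 1020 spots of the lowest bin, 598 (58.6%) stayed in the lowest, 312 (30.6%) were in bin 2, 103 (10.1%) in bin 3 and 7 (0.686%) in the highest.

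**Figure D1:**
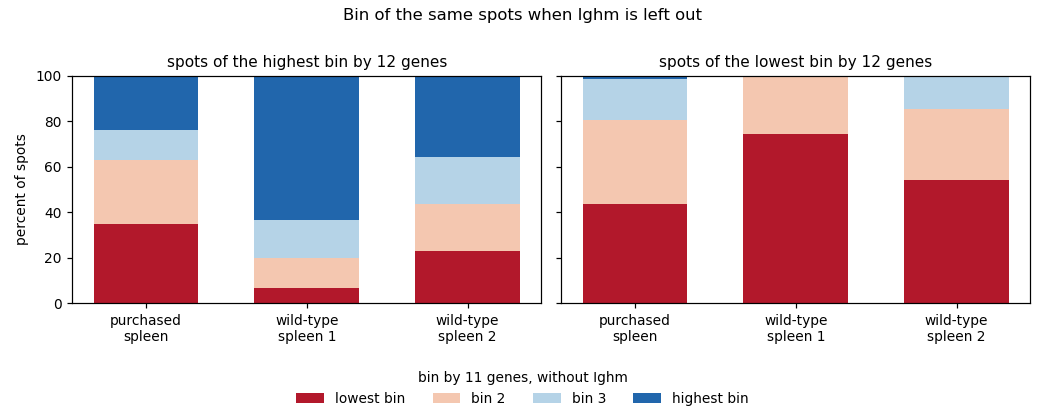
Bars give the percentage of spots of the highest (left) and lowest (right) bin by 12 genes that fell into each bin when Ighm was left out, for the 3 wild-type spleens. In the purchased spleen 34.8% of the highest bin fell into the lowest, against 6.46% in wild-type spleen 1.

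The spots that crossed from the highest to the lowest bin were rich in antibody transcripts and in red pulp transcripts at once. The summed level of 14 plasma-cell genes, mostly Igkc, was 97110.0, 32534 and 64459.9 CPM in them, against 24486, 13493 and 18372 CPM in the spots that were highest under both rankings. In contrast, 20 B-cell genes outside the rule summed to 4299, 3023 and 3501 CPM in the crossing spots and to 12009.8, 9644 and 8006 CPM in those highest under both. The 20 red pulp macrophage genes summed to 5895, 7506 and 5603 CPM in the crossing spots, to 2055, 2319 and 2219 CPM in those highest under both and to 9016, 7926 and 6288 CPM in those lowest under both. In every section the crossing spots thus stood nearer to the lowest bin in macrophage transcripts and above both in plasma-cell transcripts. The bins were cut on genes of the same spots, so these sums are a description and carry no test.

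T-cell transcripts were high in spots that moved up when Ighm was left out. In the spots that were lowest with Ighm and in bin 3 without it, 45 spots of the purchased spleen and 57 of wild-type spleen 2, the 20 T-cell genes outside the rule summed to 3613 and 6801 CPM. In the spots lowest under both rankings they summed to 1787 and 2209 CPM in these 2 sections. Wild-type spleen 1 had 1 such spot. In the spots that moved from the lowest bin to bin 2, the T-cell sums were 2742, 1358 and 4933 CPM. Those lowest under both had 1787, 814 and 2209 CPM. The B-cell genes outside the rule summed to 6935 and 2512 CPM in the spots that moved to bin 3, against 4131 and 2939 CPM in those lowest under both, again for these 2 sections. Of the 11 genes of the ranking, 6 are T-cell genes, so these sums restate the ranking in part and carry no test.

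**Figure D2:**
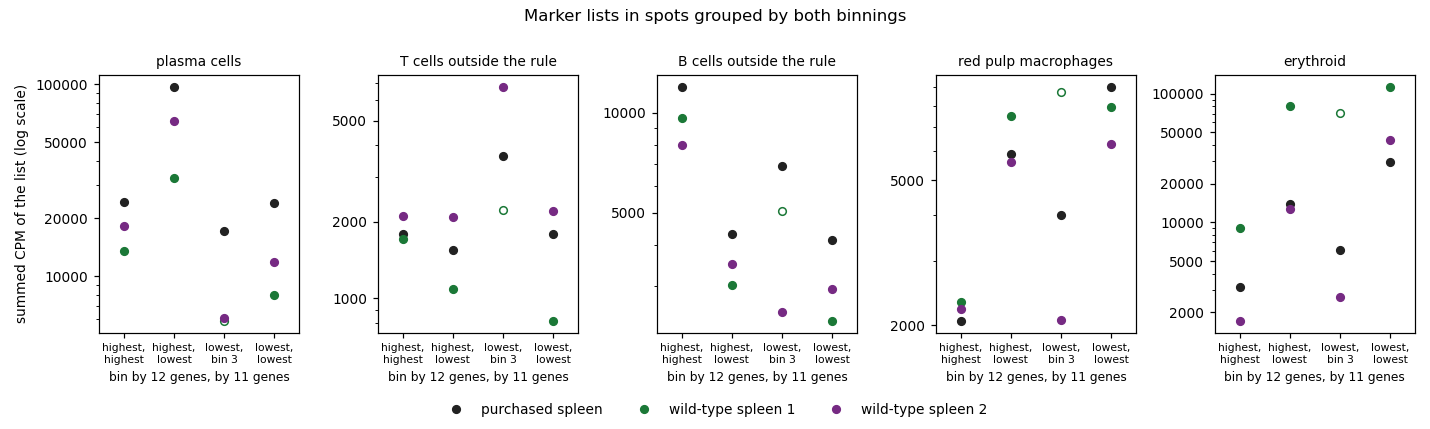
Points give the summed CPM (log scale) of 5 marker lists in spots grouped by their bin with and without Ighm, 1 point per wild-type spleen; an open point rests on 1 spot. Spots highest with Ighm and lowest without it had the most plasma-cell transcripts, up to 97110 CPM, and macrophage sums of 5603 to 7506 CPM.

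Spots of the same end bin tended to lie together in the tissue, most so in wild-type spleen 1. Among neighbouring passing spots on the 6-sided array, 40.1, 49.1 and 38.9% of the neighbours of highest-bin spots were themselves in the highest bin, and 43.2, 64.2 and 48.4% of the neighbours of lowest-bin spots were in the lowest. Each bin held 25% of the spots. Without Ighm these percentages were 52.0, 58.2 and 39.8 for the highest bin and 52.6, 69.3 and 41.1 for the lowest. Position was not used by the rule, and spots of 1 section are not replicates.

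**Figure D3:**
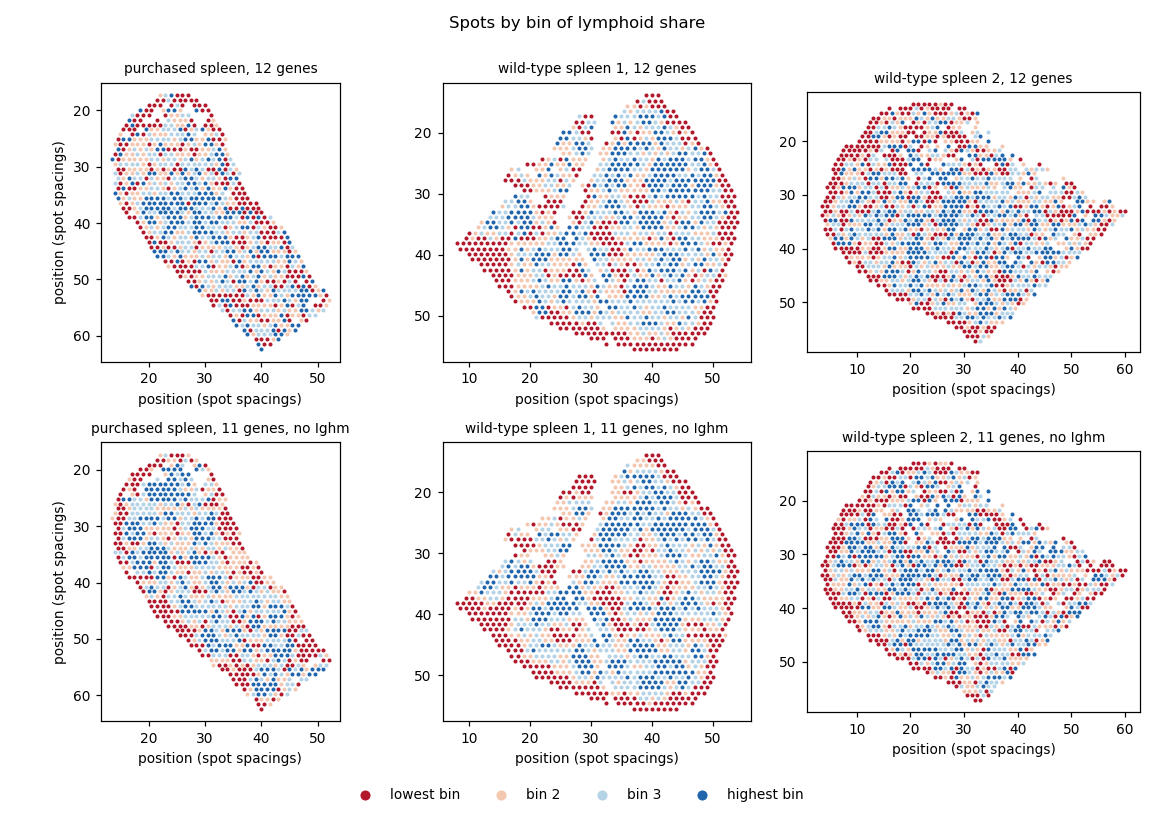
Maps of the passing spots of the 3 wild-type spleens in units of spot spacing, coloured by bin of lymphoid share with all 12 genes (top) and without Ighm (bottom). Spots of the same end bin tended to lie together, most so in wild-type spleen 1, where 64.2% of the neighbours of lowest-bin spots were lowest-bin spots too.

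Depth differed more between sections than between bins. Passing spots held 15291792, 19934060 and 4225805 UMIs, with medians of 10971, 13937.5 and 2293.5 UMIs per spot. In the purchased spleen the lowest bin had a median of 7032 and the highest of 12368 UMIs per spot, against 12403 and 14646.5 in wild-type spleen 1 and 2296 and 2346 in wild-type spleen 2. The depth gap within the purchased spleen moved with the rule there, and its part in the results was not tested beyond the thinning described under the alternatives. In wild-type spleen 2, 116 spots carried at least 0.5% of their UMIs from genes of the pancreas list, a neighbouring organ, against 0 spots in the other two sections. Of the barcodes of passing spots, 1104 were shared by both cross sections and 0 by either with the purchased one. On this platform a barcode names a position on the array and not a cell.

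Genes were then compared between the highest and the lowest bin with edgeR's quasi-likelihood test on the counts summed per bin, with the section as a block and Benjamini-Hochberg adjustment. Differences are log2 of highest over lowest bin ± SE (n = 3 paired sections), and CPM values from here on leave the 12 rule genes out of the total. Of 17255 genes tested, 800 (4.64%) passed an adjusted p of 0.05, with 339 (1.96%) higher and 461 (2.67%) lower in the highest bin, and the median difference of all genes was −0.03. With upper-quartile scaling the split was 163 higher and 395 lower, and without wild-type spleen 1 the count was 455, with 215 higher and 240 lower. Genes made by the same cells as the 12 rule genes differ here partly because the rule chose the spots. When each spot's UMIs were split at random into 2 equal parts, the bins cut on the first and the genes counted in the other, 407 genes passed, and when each spot's bin came from its neighbours alone, 258 passed. In a spot, fewer cells of a type and less RNA per cell cannot be told apart.

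The genes that rose most in the highest bin were antibody genes and genes of antibody-secreting cells. Of the 15 genes with the largest rise, 10 encode parts of immunoglobulins, namely Ighg3, Ighg2b, Ighj1, Ighj4, Igkc, Igkv12-89, Igkv19-93, Igkv8-27, Iglc1 and Iglc2. The other five were Jchain, Mzb1, Derl3, Eaf2 (a transcription elongation factor) and Cr2. Their differences ran from 1.37 to 2.16, and for 3 of the 15 the lowest and highest bins did not overlap across sections, where 4.09% of all genes tested did not.

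Ighg3, the heavy chain of IgG3, read 981, 143 and 145.1 CPM in the lowest bin and 4238, 401 and 1124 CPM in the highest. Each section was higher in its highest bin, and the 2 groups overlapped across sections because the purchased spleen was higher throughout (2.16 ± 0.25, adjusted p = 5.2e-06). Jchain, which joins IgM and IgA into polymers for secretion, read 1574, 351 and 355 CPM and 6179, 639.9 and 2100.2 CPM (1.80 ± 0.28, adjusted p = 0.00018). Bins 2 and 3 lay at 1417, 409 and 518 and 1583, 336 and 492 CPM, so the largest step in each section lay between bins 3 and 4. Igkc, the constant part of the kappa light chain, went from 17343, 6731 and 8155 to 55040.1, 15602 and 34728 CPM (1.65 ± 0.35, adjusted p = 0.0044). Mzb1, a chaperone of immunoglobulin assembly made by plasma cells and marginal zone B cells, read 213, 185 and 197 CPM in the lowest bin and 523, 521 and 630.2 CPM in the highest (1.48 ± 0.17, adjusted p = 4.4e-06). All 3 highest bins stood above all 3 lowest for Mzb1, which also rose step by step over the 4 bins. Immunoglobulin genes form a family with near-identical copies, so how their counts were split between copies is uncertain.

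Of the 14 genes listed for plasma cells, 10 rose and 0 fell, with a median of 0.95, and DESeq2 called 8. Besides Jchain, Igkc and Mzb1 these were Derl3 (1.37, adjusted p = 7.7e-05), which removes misfolded proteins from the endoplasmic reticulum, Irf4 (1.32, adjusted p = 2.6e-05), a transcription factor of plasma-cell differentiation, Sdc1 (0.98, adjusted p = 0.0023), the plasma-cell surface protein CD138, and Xbp1 (0.76, adjusted p = 0.0031), the regulator of secretory capacity. Txndc5, Creld2 and Slamf7 made up the 10. Igha, the heavy chain of IgA, read 3145, 708 and 943 CPM in the lowest bin and 5067, 536 and 2043 CPM in the highest and did not pass (0.47 ± 0.27, adjusted p = 0.36). When bins came from neighbouring spots, Jchain was at 1.32 with an adjusted p of 0.056 and Igkc at 1.29 with 0.15, while Mzb1 (1.12, adjusted p = 0.0031) and Ighg3 (1.84, adjusted p = 0.0041) still passed. Without wild-type spleen 2, Jchain (1.40, adjusted p = 0.2) and Igkc (1.41, adjusted p = 0.76) did not pass, and without the purchased spleen Igkc did not (1.57, adjusted p = 0.053).

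**Figure D4:**
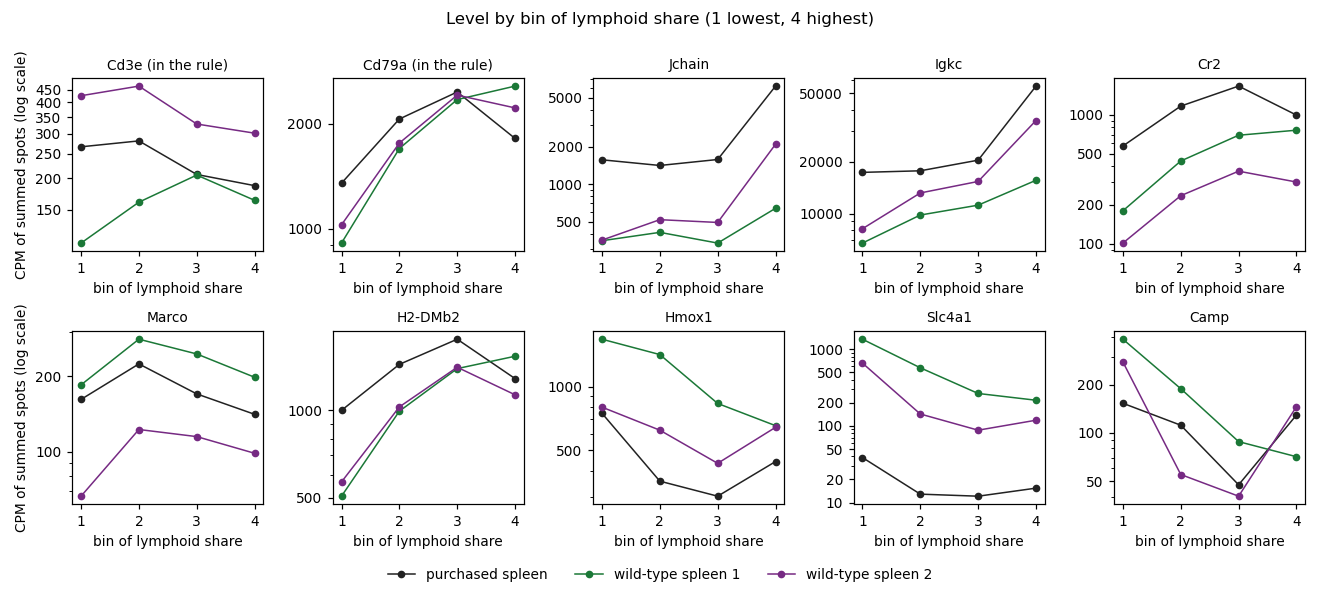
CPM of summed spots (log scale) against bin of lymphoid share for 10 genes, 1 line per wild-type spleen; Cd3e and Cd79a belong to the rule and are scaled to all genes, the other 8 to all but the 12 rule genes. Jchain was nearly flat to bin 3 and rose in bin 4, to 6179 CPM in the purchased spleen, while Slc4a1 was highest in bin 1 in all 3 spleens.

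B-cell genes that the rule did not hold were also higher in the highest bin, with 19 of 20 called higher and 0 lower, 16 of them also by DESeq2, and a median of 0.94. Ebf1, a factor of B-cell identity, read 136, 36.9 and 32.8 CPM in the lowest bin and 179, 118 and 77.3 CPM in the highest (1.06 ± 0.18, adjusted p = 0.00044). It was higher in the highest bin of each section, and the groups overlapped because the lowest bin of the purchased spleen stood above the highest bins of the other two. Cr2, a complement receptor of marginal zone B cells and follicular dendritic cells, had the largest rise of the list (1.46 ± 0.19, adjusted p = 1.9e-05). It read 572, 179.9 and 101, 1166, 437 and 235, 1666, 693 and 365 and 993, 758 and 301 CPM over bins 1 to 4. Its level therefore peaked in bin 3 in the purchased spleen and wild-type spleen 2, and in bin 4 in wild-type spleen 1. Pou2af1, a co-activator of immunoglobulin transcription (1.15), Fcer2a, the low-affinity IgE receptor of follicular B cells (1.01), and Pax5, the master factor of the lineage (0.88), rose as well, each with an adjusted p of 0.0014 or less.

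Genes of antigen presentation by MHC class II, a pathway active in B cells, dendritic cells and macrophages, moved the same way. Of 10 genes, 6 rose (5 by DESeq2) and 0 fell, with a median of 0.80, and all 10 were higher in each of 3 sections, as 15.3% of all genes were. H2-DMb2, a chain of the peptide loader, read 999.7, 507 and 567 CPM and 1286, 1535 and 1131 CPM (0.98 ± 0.20, adjusted p = 0.0027). H2-Oa and H2-Ob, which restrain that loader in B cells, rose by 0.92 and 0.81, and Ciita, the master regulator of the pathway, by 0.86 (adjusted p = 0.0011). Cd74, the invariant chain, read 14529.6, 7405 and 10218 CPM and 16544, 16912 and 15161 CPM and did not pass (0.64 ± 0.30, adjusted p = 0.25).

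Stromal and marginal zone genes were called less uniformly. Of 16 genes of lymphoid stroma and chemokines, 4 rose and 0 fell, with a median of 0.29, and by DESeq2 the list held 1 call, Mfge8. Mfge8, a bridge for the uptake of dying cells made by follicular dendritic cells, read 336, 259 and 535 CPM and 658, 1199.7 and 793 CPM (1.25 ± 0.21, adjusted p = 0.00047). Cxcl13, the chemokine that draws B cells into follicles, rose by 0.96, and Clu, a chaperone of follicular dendritic cells, and Madcam1, an addressin of the marginal sinus, by 0.85 each. Cxcl12, a chemokine that retains plasma cells and blood precursors, read 684, 169 and 178 CPM and 427, 89.4 and 189 CPM and did not pass (−0.53 ± 0.19, adjusted p = 0.11). Of 14 marginal zone genes, 5 rose and 1 fell, with a median of 0.43, and by DESeq2 the list held 2 calls, S1pr3 and Cr2. S1pr3, a sphingosine phosphate receptor that helps to hold B cells in the marginal zone, read 40.1, 21.5 and 24.3 CPM and 62.4, 68.6 and 49.3 CPM (1.12 ± 0.18, adjusted p = 0.00024), and Dtx1 and Notch2 of the Notch pathway rose by 0.66 and 0.63. Nr1h3, a nuclear receptor needed by marginal zone macrophages, fell by 0.54 on the log2 scale (adjusted p = 0.047). Cr2 and Madcam1 stand in 2 lists each.

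The T-cell genes outside the rule showed no shared direction. Of 19 tested, 0 rose and 0 fell in edgeR's test, with a median of −0.12 (0 were under 0.05 before adjustment, and DESeq2 found 0). Cd4, the co-receptor of helper T cells, read 158, 26 and 101 CPM in the lowest bin and 134, 65.5 and 103 CPM in the highest (0.36 ± 0.19, adjusted p = 0.31). Trbc2, a constant part of the T-cell receptor beta chain, read 439, 201 and 1177 CPM and 354, 322 and 593 CPM (−0.21 ± 0.20, adjusted p = 0.63). In the highest bin both genes were higher in wild-type spleen 1 and lower in the purchased spleen. The summed level of the list went from 2747, 977 and 3731 CPM to 2167, 1697 and 2399 CPM, up in wild-type spleen 1 and down in the other two. Of 9 germinal centre genes edgeR called 0 in either direction (median 0.42; 4 before adjustment at p under 0.05), and of 14 dendritic-cell genes 0 (median −0.27; 6 before adjustment). DESeq2 likewise called 0 of both.

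The genes that fell most were red cell genes. All 22 genes listed for the erythroid lineage fell (21 by DESeq2) and 0 rose, with a median of −1.95, and each was lower in the highest bin of each section, as 17.6% of all genes were. Of the 15 genes with the largest fall, whose differences were all −2.08 or lower, 8 stand in this list. Slc4a1, the anion exchanger band 3, read 38.7, 1359 and 663 CPM in the lowest bin and 15.4, 217 and 119 CPM in the highest (−2.29 ± 0.23, adjusted p = 2.9e-06). The groups overlapped, since the lowest bin of the purchased spleen stood below the highest bin of wild-type spleen 1. For Hemgn, a nuclear protein of red cell precursors, Rhd, the Rhesus antigen, and Car2, a carbonic anhydrase, the 3 lowest bins all stood above the 3 highest. Hemgn read 64.8, 226 and 113 CPM and 27.5, 35 and 16.4 CPM (−2.22 ± 0.24, adjusted p = 2.9e-06).

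Genes of haem and haemoglobin fell with them. Alas2, the first and rate-limiting enzyme of red cell haem synthesis, went from 214, 3500.2 and 984 to 104, 599 and 178 CPM (−2.05 ± 0.26, adjusted p = 1.5e-05), and Hbb-bs, an adult beta globin, from 16516, 65425 and 17226 to 7175, 13178 and 3556 CPM (−1.94 ± 0.36, adjusted p = 0.0011). The regulators Gata1, the lineage's master factor (−1.69), and Klf1, the activator of beta globin (−1.11), fell less. Outside the list, Kel, the Kell blood group antigen (−2.11), Trim10, a ubiquitin ligase of late red cell precursors (−2.13), and Fn3k, a kinase that repairs glycated proteins (−2.16), were among the 15, as were Tspan8, a tetraspanin (−2.35), Btnl10, a butyrophilin-like gene (−2.15), Apol8, of the apolipoprotein L family (−2.13), and 1300017J02Rik (−2.10). All 15 also passed with the bins cut on a separate part of the UMIs and with bins from neighbouring spots. Globin genes have near-identical copies, so the split of their counts is uncertain.

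Members that fall together can be looked at for shared promoter letters. Of the 22 erythroid genes, 13 had an entry among the RefSeq promoters used here (GRCm38.p6). In 6 of them, or 46.2%, the 250 bases before the start held AGATAA on either strand (TTATCT when it lies on the other strand), a common form of the sequence that GATA factors bind, against 11.4% of 27025 gene symbols. The 6 windows are shown because these genes are the ones of the list with the match; each is written 5′ to 3′ on the gene's own strand, upstream of the first exon, with the motif in capitals.
Alas2, chrX:150547304-150547363, plus strand: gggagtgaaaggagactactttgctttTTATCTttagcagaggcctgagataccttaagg
Rhd, chr4:134864466-134864525, plus strand: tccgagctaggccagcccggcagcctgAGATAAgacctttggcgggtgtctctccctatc
Epb42, chr2:121037071-121037127, minus strand: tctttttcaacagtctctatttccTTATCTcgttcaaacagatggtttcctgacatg
Epor, chr9:21963598-21963657, minus strand: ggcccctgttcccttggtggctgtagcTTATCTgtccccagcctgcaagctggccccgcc
Hbb-bs, chr7:103828106-103828165, minus strand: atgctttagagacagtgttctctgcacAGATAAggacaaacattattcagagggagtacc
Tmcc2, chr1:132367949-132368008, minus strand: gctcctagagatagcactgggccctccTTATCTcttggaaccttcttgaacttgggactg
The nearest motif base lay 81 bases before the start for Alas2, 38 for Rhd, 221 for Epb42, 49 for Epor, 205 for Hbb-bs and 28 for Tmcc2. All 6 genes fell in the highest bin, with log2 differences of −2.23 for Rhd, −2.16 for Tmcc2, −2.08 for Epb42, a membrane skeleton protein, −2.05 for Alas2, −1.94 for Hbb-bs and −1.83 for Epor, the erythropoietin receptor. A match of letters is a description of the window and not of binding.

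Genes of red pulp macrophages fell in part. Of 20 genes 12 fell and 0 rose, with a median of −0.67, where DESeq2 called 6. Hmox1 fell by 0.82 on the log2 scale (SE 0.21, adjusted p = 0.021), and at the levels given above all 3 lowest bins stood above all 3 highest. Without wild-type spleen 2 it did not pass (−1.08, adjusted p = 0.13). Blvrb, a biliverdin reductase shared with red cells, read 492, 1338 and 610.2 CPM in the lowest bin and 311, 397 and 308 CPM in the highest (−1.15 ± 0.21, adjusted p = 0.0013). C1qb, a chain of complement C1q, went from 488, 101 and 85.2 to 279.7, 54.9 and 56.1 CPM (−0.79 ± 0.16, adjusted p = 0.0036), and Cd163, the haemoglobin scavenger receptor, from 87.2, 25.3 and 41.2 to 55.2, 12.5 and 22.2 CPM (−0.82 ± 0.18, adjusted p = 0.0068). Spic, the factor that defines these macrophages, read 232, 63.1 and 41.2 CPM and 123, 46 and 42.5 CPM and did not pass (−0.55 ± 0.17, adjusted p = 0.062), nor did Slc40a1, the iron exporter ferroportin, at 597, 493 and 346 and 343, 233 and 384 CPM (−0.60 ± 0.20, adjusted p = 0.092). For Slc40a1 wild-type spleen 2 was higher in its highest bin and the other two were lower.

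Over the 4 bins the summed macrophage list read 8096, 7880.0 and 4889 CPM in bin 1, 4192, 6461 and 3822 in bin 2, 3669, 4307 and 3185 in bin 3 and 4818, 3644 and 4120.2 CPM in bin 4. It was thus lowest in bin 3 in the purchased spleen and wild-type spleen 2, where bin 4 stood above it, and lowest in bin 4 in wild-type spleen 1. The plasma-cell list, read the same way, was at 25076, 13221 and 18152 CPM in bin 3 and 68311, 18192 and 40699 CPM in bin 4.

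Of 10 genes of iron storage and transport, 3 fell and 1 rose, with a median of −0.31, and DESeq2 called the 3 that fell. Tfrc, the transferrin receptor of red cell precursors, read 189.7, 590.1 and 341 CPM and 129, 168 and 137 CPM (−1.25 ± 0.21, adjusted p = 0.0005), and Steap3, its endosomal ferrireductase, and Slc25a37, the mitochondrial iron importer, fell too (−1.20 and −1.19). Cp, the ferroxidase ceruloplasmin, rose by 0.76 (adjusted p = 0.022). Of 10 monocyte genes 3 fell (2 by DESeq2) and 0 rose (median −0.40), among them Cd300e, an activating receptor (−1.23, adjusted p = 0.00047), and Fcgr4, a receptor for IgG (−0.91, adjusted p = 0.0086). Of 15 Fc receptor and complement genes 1 fell, again Fcgr4, and 2 rose, namely C3, the central complement component (0.79, adjusted p = 0.0091), and Cfb, complement factor B (0.72, adjusted p = 0.0072), of which DESeq2 called C3 alone.

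Neutrophil genes, which in spleen include those of granulocyte precursors, fell in 8 of 16 cases and rose in 0, with a median of −0.80, and DESeq2 called 5, Ltf among them but not Camp (adjusted p = 0.6 by DESeq2). Camp, the antimicrobial peptide cathelicidin, read 153, 386 and 278 CPM in the lowest bin and 129, 71 and 146 CPM in the highest (−1.22 ± 0.28, adjusted p = 0.0083), and Ltf, the granule protein lactoferrin, 54.1, 143 and 114 and 39.6, 26.7 and 49.3 CPM (−1.44 ± 0.26, adjusted p = 0.00099). The granule enzymes of early precursors, Mpo, Elane and Prtn3, did not pass. Elane, neutrophil elastase, read 58.3, 63.4 and 72.1 CPM in the lowest bin and 76, 25.4 and 72.5 CPM in the highest, higher in the highest bin in the purchased spleen, lower in wild-type spleen 1 and nearly level in wild-type spleen 2 (−0.35 ± 0.24, adjusted p = 0.47). Of 15 neutrophil genes with a RefSeq promoter entry, 6 (40%) held GAGGAAGT on either strand (ACTTCCTC on the other strand), a form of the sequence bound by the myeloid factor PU.1, against 2.79% of symbols. The windows of the 3 precursor enzymes and of S100a8, a calcium-binding protein of mature neutrophils, are shown because S100a8 passed and the 3 enzymes did not, with the motif in capitals.
Mpo, chr11:87793534-87793594, plus strand: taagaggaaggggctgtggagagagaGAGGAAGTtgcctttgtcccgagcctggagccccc
Elane, chr10:79886200-79886261, plus strand: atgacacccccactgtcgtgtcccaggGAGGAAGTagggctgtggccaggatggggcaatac
Prtn3, chr10:79879545-79879606, plus strand: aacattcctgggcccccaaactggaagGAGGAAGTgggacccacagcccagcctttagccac
S100a8, chr3:90668872-90668933, plus strand: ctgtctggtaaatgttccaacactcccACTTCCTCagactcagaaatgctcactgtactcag
The nearest motif base lay 217 bases before the start for Mpo, 78 for Elane, 88 for Prtn3 and 165 for S100a8. S100a8 fell (−1.04 ± 0.25, adjusted p = 0.013), and Mpo (−0.71, adjusted p = 0.12) and Prtn3 (−0.50, adjusted p = 0.3) did not pass. The third motif searched, the octamer ATTTGCAT of B-cell factors, was found in 1 of 17 B-cell promoters (Blnk), against 1.81% of symbols.

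Of 10 cell cycle genes 5 fell and 0 rose (median −0.85), where DESeq2 called 1, Cdk1. Among the 5 were Mki67, the proliferation marker, from 250.3, 820.1 and 481 to 242, 193 and 224 CPM (−1.10 ± 0.27, adjusted p = 0.014), and Cdk1, the mitotic kinase (−1.16 ± 0.22, adjusted p = 0.0015). Of 15 endothelial genes 2 fell, Stab1 (−0.91) and Stab2 (−0.70), scavenger receptors of sinus endothelium, and 0 rose (median −0.35), Stab1 alone also by DESeq2. Of 12 genes of natural killer and cytotoxic cells 1 fell, Gzma, a granzyme (−0.78, adjusted p = 0.01), and of 10 interferon-stimulated genes 1 fell, Rsad2, the antiviral enzyme viperin (−1.79, adjusted p = 1.1e-05), of which DESeq2 called Rsad2. By edgeR's test, 0 of 14 megakaryocyte genes (median −0.38) and 0 of 14 fibroblast and capsule genes (median 0.10) passed, with 6 and 5 before adjustment at p under 0.05, while DESeq2 found 0 in either. Likewise 0 passed of 8 pancreas genes (median −0.37, 3 before adjustment), whose summed level in wild-type spleen 2 was 1043 CPM in the lowest and 866 CPM in the highest bin, and 0 of 8 genes of fat and mesothelium (median −0.56, 2 before adjustment), again with 0 by DESeq2.

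**Figure D5:**
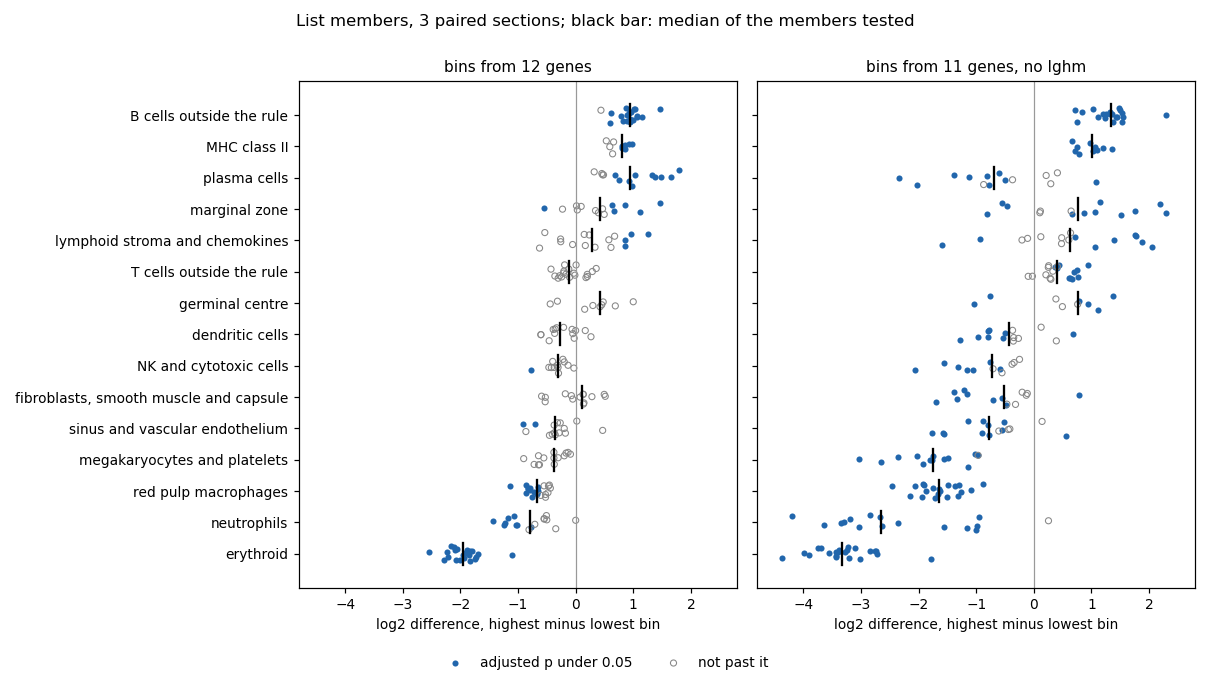
Points give the log2 difference of each list member between the highest and the lowest bin, over 3 paired sections, with 12 genes (left) and without Ighm (right); filled points passed an adjusted p of 0.05 and black bars are medians of the members tested. The median of the plasma-cell list was 0.95 on the left and −0.69 on the right, and that of the erythroid list −1.95 and −3.33.

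The middle of the range was then set against its ends. The rule does not make this contrast, but the bins were cut on the rule's share, so the contrast is not independent of it. B-cell and antibody genes can restate the rule in part here too. The contrast is the mean of bins 2 and 3 minus the mean of bins 1 and 4, on the log2 scale. A gene that rises or falls at every step, but unevenly, can also pass. Higher or lower in the middle therefore names the sign of the contrast and not a peak or a dip. Of 18316 genes tested, 183 (0.999%) passed, with 89 (0.486%) higher in the middle and 94 (0.513%) lower, around a median of 0.01. With upper-quartile scaling the split was 61 higher and 97 lower, and with bins from the 11 genes without Ighm it was 112 higher and 19 lower. The count rested on single sections: it was 66 without the purchased spleen, 985 without wild-type spleen 1 and 2 without wild-type spleen 2, and it was 0 with bins from neighbouring spots, where 1592 genes were under 0.05 before adjustment in the same edgeR test.

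Marginal zone genes stood higher in the middle, with 6 of 14 called higher and 0 lower. Cd209b, the lectin receptor SIGN-R1 of marginal zone macrophages, read 45.7, 13.9 and 16.8 CPM in bin 1, 80.2, 36.4 and 36.3 in bin 2, 62, 37.3 and 27.8 in bin 3 and 44.7, 24.8 and 20.3 CPM in bin 4. Both middle bins were above both end bins in all 3 sections (0.76 ± 0.10, adjusted p = 0.00066). Marco, a scavenger receptor of the same macrophages, peaked in bin 2 in each section, at 224, 281 and 123 CPM against 162, 185 and 66.5 in bin 1 and 141, 198 and 98.6 in bin 4 (0.40 ± 0.08, adjusted p = 0.012). Its difference between the end bins did not pass (0.10 ± 0.16, adjusted p = 0.8). S1pr3 (0.73, adjusted p = 0.002), Cr2 (0.68, adjusted p = 0.0014), Dtx1 (0.52, adjusted p = 0.011) and S1pr1, a receptor that guides lymphocytes into blood (0.38, adjusted p = 0.037), made up the 6.

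Of the 20 B-cell genes 15 were higher in the middle and 0 lower, with a median of 0.41, and of 16 stromal genes 2 were, Mfge8 (0.60) and Cxcl13 (0.62). The largest contrast belonged to Cdh17, a cadherin (0.94 ± 0.19, adjusted p = 0.014), at 14.4, 2.13 and 4.68 CPM in bin 1, 26.8, 10.7 and 8.83 in bin 2, 26.7, 18.2 and 9.57 in bin 3 and 15.2, 13.4 and 5.8 CPM in bin 4. Ltk, a receptor tyrosine kinase (0.79), Lsmem2, a membrane protein (0.73), Pla2g2d, a secreted phospholipase of dendritic cells (0.69), Adam33, a metalloprotease of stroma (0.68), Il9r, the receptor of interleukin 9 (0.67), and Pcdh15, a protocadherin (0.64), completed the 10 with the largest contrast, beside Cd209b, S1pr3 and Cr2. Of these 10, 6 were also among the 15 with the largest rise when Ighm was left out of the rule.

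Lower in the middle were granulocyte precursor genes. The 5 with the lowest contrast were Ctsg, the granule protease cathepsin G (−1.32 ± 0.23, adjusted p = 0.0054), Mpo, myeloperoxidase (−1.13), Camp (−1.10), Elane (−1.09) and Prtn3, proteinase 3 (−1.07). Ctsg read 35, 17.7 and 24.3 CPM in bin 1, 12.1, 11.3 and 8.83 in bin 2, 11.3, 6.7 and 6.7 in bin 3 and 48, 8.52 and 12.6 CPM in bin 4. In the purchased spleen bin 4 was the highest, and in the other two bin 4 stood above bin 3 and below bin 1. With bins from the 11 genes Mpo (−0.79, adjusted p = 0.0044), Elane and Prtn3 still passed, and Ctsg (−0.72, adjusted p = 0.073) and Camp (−0.49, adjusted p = 0.15) did not. Jchain (−0.82 ± 0.15, adjusted p = 0.0071), Ighg3 (−1.05 ± 0.13, adjusted p = 0.00066) and Igha (−0.64 ± 0.15, adjusted p = 0.034) were lower in the middle too. Of 22 erythroid genes 17 were lower in the middle, of 20 macrophage genes 4, of 16 neutrophil genes 6 and of 14 megakaryocyte genes 4, among them Pf4, platelet factor 4 (−0.91, adjusted p = 0.013). In wild-type spleen 1 such genes could fall at every step, as Slc4a1 did, at 1359, 575, 266 and 217 CPM over bins 1 to 4.

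The end bins were compared once more after Ighm was dropped from the share, a choice made after seeing the data. Of 17756 genes tested, 4072 (22.9%) passed, 2171 (12.2%) higher and 1901 (10.7%) lower in the highest bin, around a median of −0.03. Of the 800 genes called with all 12 genes, 766 were called again, 15 of them with the opposite sign. The spots chosen still depended on 11 lymphocyte genes, so B-cell and T-cell differences again restate the rule in part.

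The antibody genes changed sign in the fit, though not in every section. Of the 15 genes with the largest rise under the 12-gene rule, 13 had the opposite sign and 9 of these passed. Jchain read 6181, 641 and 1405 CPM in the lowest bin without Ighm and 1148, 169 and 296 CPM in the highest (−2.33 ± 0.18, adjusted p = 4.6e-09). Ighg3 read 4445, 174 and 604 CPM and 740.0, 100.4 and 161 CPM (−1.91 ± 0.22, adjusted p = 1.6e-06). Both were now lower in the highest bin of each section. Igkc read 53815, 9809 and 22570 CPM in the lowest bin and 17525, 11118 and 13264 CPM in the highest (−0.87 ± 0.32, adjusted p = 0.055). In wild-type spleen 1 Igkc thus rose, as did Iglc1 (376 to 580 CPM), Ighj4 (499 to 800 CPM), Igkv19-93 (98.4 to 195 CPM) and Iglc2 (71.0 to 123 CPM). Of these, Igkc, Ighj4, Igkv19-93 and Iglc2 did not pass. Igha, not called before, fell (−2.02 ± 0.19, adjusted p = 6.7e-08). The exceptions to the change of sign among the 15 were Cr2, which rose (2.30 ± 0.16, adjusted p = 9.7e-10), and Mzb1, which did not pass (0.41 ± 0.17, adjusted p = 0.092). Of the 14 plasma-cell genes 8 fell and 1, Irf4, rose. Their summed level went from 69613, 12046 and 27543 CPM to 21282, 12917 and 15452 CPM, up in wild-type spleen 1. Ighm itself, now outside the rule, was at 22119, 4721 and 9388 CPM in the lowest bin and 8293, 5138 and 5301 CPM in the highest.

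Lymphocyte lists rose. All 20 B-cell genes and all 10 MHC class II genes rose, with medians of 1.34 and 1.00. Of 19 T-cell genes 10 rose and 0 fell, with a median of 0.41, among them Cd2, an adhesion receptor (0.94, adjusted p = 1.9e-05), Cd4 (0.76, adjusted p = 0.0008) and Ccr7, the homing receptor for the T-cell zone (0.63, adjusted p = 0.0018). The largest rises belonged to Cr2, S1pr3 (2.20), Enpp2, the lysophospholipase autotaxin (2.11), Mfge8 (2.05) and Dsc2, a desmosomal cadherin (2.00). Cxcl13 (1.87), Lta, the cytokine lymphotoxin alpha (1.82), Ccr6, a chemokine receptor of B cells (1.76), Clu (1.77), Madcam1 (1.76) and Fcamr, a receptor for IgA and IgM (1.74), also stood among the 15. Cr2 read 384, 141 and 100.1 CPM in the lowest bin and 1944, 919 and 462 CPM in the highest.

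Erythroid and myeloid lists fell. All 22 erythroid and all 20 macrophage genes fell, with medians of −3.33 and −1.65, as did 15 of 16 neutrophil genes (median −2.65) and 13 of 14 megakaryocyte genes (median −1.75). Hmox1 read 764, 1714 and 1032 CPM in the lowest bin and 181, 405 and 279 CPM in the highest, again without overlap (−2.15 ± 0.16, adjusted p = 2.0e-09). Among the largest falls were those of Camp (−4.20 ± 0.26, adjusted p = 2.2e-10), Slc4a1 (−3.99), Kel (−3.94) and Rhd (−3.91). Elane, which had not passed before, fell (−2.84, adjusted p = 1.8e-10), as did Pf4 (−3.03, adjusted p = 1.1e-10). Slc40a1 and Spic, which had not passed, fell as well (−1.90 and −1.27). Stab2 fell (−1.77), and of 15 endothelial genes 10 fell and 1 rose. Falls without rises were called for 9 of 10 cell cycle genes, 7 of 12 natural killer genes, 5 of 10 interferon-stimulated genes, 4 of 8 pancreas genes and 2 of 8 genes of fat and mesothelium. Of 14 fibroblast genes 8 fell and 1 rose, of 14 dendritic-cell genes 7 fell and 1 rose, of 10 monocyte genes 7 fell and 1 rose, of 15 Fc receptor and complement genes 8 fell and 3 rose, and of 10 iron genes 5 fell and 1 rose. More rises than falls were called among stromal genes (7 of 16 higher, 2 lower), marginal zone genes (8 of 14 and 3) and germinal centre genes (4 of 9 and 2).

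The 2 C1qa knockout spleens of the same cross, in which C1qa read 0 CPM in both end bins, were cut into bins in the same way. They had not entered the fits above, but their bins were cut on the same lymphoid share. Ighm made up 78.8 and 79.2% of the lymphoid UMIs of their highest bins. Rises of antibody and B-cell genes in these spleens therefore restate the rule in part. With 1 section each, their values are a description. Jchain went from 344 to 3626 CPM in knockout spleen 1 and from 327 to 3479 CPM in knockout spleen 2, and Igkc from 12905 to 69379 and from 9937 to 63221 CPM. All 15 genes with the largest rise in the wild-type spleens were higher in the highest bin of both, and 11 of the 15 with the largest fall were lower in both. The T-cell list was lower in all 19 members in both spleens, with medians of −0.92 and −0.68, and the B-cell list higher in all 20, with medians of 0.21 and 0.62. Erythroid medians were −1.09 and −0.50, and macrophage medians 0.05 and 0.38. In knockout spleen 2 the endothelial, fibroblast and natural killer lists also had medians above 0 (0.38, 0.42 and 0.43). In knockout spleen 1 these were −0.03, −0.05 and 0.09. The neutrophil and interferon-stimulated lists of knockout spleen 2 were at −0.08 and −0.003. No share over all genes was taken in these spleens, so the counts of members higher or lower have no background beside them. The B-cell rise there cannot be read as particular to B cells. The pancreas list had medians of −6.37 and −8.10 there, and 37 and 48 passing spots carried at least 0.5% pancreas UMIs. Pancreas transcripts thus took up part of the totals of the lowest bins, which lowers the CPM of spleen genes there. The size of this effect on the other lists was not tested. The knockout medians were not scaled as in the wild-type fit, so the 2 are not on 1 scale.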

How the data were processed

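Formalin-fixed spleen sections were profiled with probe-based Visium. The deposited files hold raw UMI counts per probe-defined gene and spot, made by the authors with the vendor's pipeline on mm10 (the matrix headers name Cell Ranger 4 for the purchased spleen and spaceranger 4.0.1 for the cross spleens), and tables of array positions with a flag for tissue. The tables list 32589 and 19465 features. They were joined on the 19465 shared identifiers, and the unshared features held 8.29% of the purchased spleen's UMIs. Of the shared identifiers, 22 carry a symbol listed more than once and 0 a symbol that differs between tables. Columns belonging to no sample numbered 0. No doublet caller was run on spots.

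Counts were summed per section and bin of lymphoid share, the 12 rule genes were left out, and edgeR 4.0.16 (TMM factors, filterByExpr, quasi-likelihood F test, Benjamini-Hochberg adjustment, threshold 0.05) was fitted with the section as a block in R 4.3.3 with limma 3.58.1. The block pairs bins of 1 section, which come from the same animal. The 3 sections are labelled as separate spleens, so none was treated as a repeat of another. Their summed counts differed by more than sampling noise (chi-square per degree of freedom 5.24 to 59.5). Sections of 1 animal could differ so too, and these values do not show separate animals. DESeq2 1.42.0 was an alternative. Differences of the knockout spleens are of log2(CPM + 1). The scripts were tested on simulated counts. Bins, promoters and figures were computed in Python 3.11.15 with numpy 2.4.6, scipy 1.17.1 and pandas 2.3.3.

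Genes named were the 15 with the largest rise and the 15 with the largest fall among genes past the threshold, with the same direction in 3 sections and a mean of at least 10 CPM, the 10 highest and 5 lowest of the middle contrast by the same conditions, the members of 22 gene lists, and the rule genes. The spots, lists and tests were chosen with earlier results of these data known. The rankings without Ighm (from 11 genes, and from the 5 other B-cell genes) and the middle contrast without pancreas spots were chosen after seeing the data, and the genes named for the 11-gene ranking follow the same rule. Listed members absent from the joined tables are Ccl19, Ccl21a, Ftl1, Ly6c2, Ccnb1, Rrm2, C1s1, Isg15, Mx1, Cpb1 and Try5. Promoters of 32851 RefSeq entries for 27025 symbols (GRCm38.p6) were searched for 3 motifs over the 250 bases before the start, on both strands. Results for some genes are not reported here. With the section as a block, differences in level between the 3 sections are set aside. P-values of the blocked fits measure how far the bin differences within a section varied across these sections.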

Additional observations from a re-analysis of the deposited data

How the results depend on the processing

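Of 17255 genes, 800 passed between the highest and the lowest bin, and the count was 260 by DESeq2, 1206 with no filter on low counts, 209 with the knockout spleens added, 434 for the upper against the lower 50% of spots, 1279 for all spots over tissue and 195 with each spot thinned to 2000 UMIs, which left out 44, 4 and 554 spots. Leaving out 1 section gave 455 to 1001. Without the replicate block the fit called 0 genes (254 at an unadjusted p under 0.05), and the middle contrast 0 (99 at an unadjusted p under 0.05). Bins from the B-cell genes alone gave 356, from the T-cell genes alone 1476, from the 5 B-cell genes without Ighm 2733, from the 11 genes without Ighm 4072, from neighbouring spots 258 and from a separate part of the UMIs 407. Upper-quartile factors (558), RLE factors (810), the rule genes kept in the library sizes (775), the end 10% of spots (661) and leaving out pancreas spots (654) stayed within 1.5 times. The middle contrast called 183, against 118 by DESeq2, 33 thinned, 0 from neighbouring spots, 2 to 985 without 1 section, 176 without pancreas spots and 131 without Ighm (112 higher, 19 lower). Of its 15 named genes, 8 no longer passed and 2 changed sign without Ighm, 11 no longer passed without the purchased spleen, and 14, all but Cd209b, without wild-type spleen 2.

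With T-cell genes alone these differences changed sign: Ighg3 −0.42, Jchain −0.59, Iglc1 −0.39, Igkv12-89 −1.25, Igkc −0.45, Igkv19-93 −0.20, Ighj1 −0.60, Ighg2b −0.43, Iglc2 −0.082, Mzb1 −0.24, Cr2 −0.48, Eaf2 −0.17, Ighj4 −0.25, Igkv8-27 −0.55, Derl3 −0.062 and Marco −0.074. With the 5 B-cell genes these did: Ighg3 −1.69, Jchain −1.99, Iglc1 −0.42, Igkv12-89 −1.27, Igkc −0.53, Ighj1 −0.76, Ighg2b −1.44, Eaf2 −0.60, Ighj4 −0.092, Igkv8-27 −1.27, Derl3 −0.61 and Cd4 −0.069. With the 11 genes these did: Ighg3 −1.91, Jchain −2.33, Iglc1 −0.75, Igkv12-89 −1.49, Igkc −0.87, Igkv19-93 −0.15, Ighj1 −1.10, Ighg2b −1.67, Iglc2 −0.10, Eaf2 −0.94, Ighj4 −0.36, Igkv8-27 −1.49, Derl3 −0.78 and, in the middle contrast, Il9r −0.0034 and Pcdh15 −0.25. Cd4 ranged from −0.068 to 0.63 when 1 section was left out, −0.068 being without wild-type spleen 1, and was at −0.092 with the knockout spleens, −0.016 between the upper and lower 50% and −0.22 with all 6 B-cell genes. Marco ranged from −0.075 to 0.18 when 1 section was left out, −0.075 being without wild-type spleen 2, and was at −0.14 between the upper and lower 50% and −0.068 thinned. Cd4 and Marco had not passed in the main comparison. The cause of the changes was not tested, other than that each ranking moves spots between bins by its construction. With a separate part of the UMIs, 32 of 32 genes named for this comparison kept direction and side of the threshold, and with neighbouring spots 26 did and 6 no longer passed. Without wild-type spleen 2, 7 of the 32 no longer passed, 5 with the knockout spleens added, and 1, Igkc, without the purchased spleen.

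Depth limits wild-type spleen 2 most, with 4225805 UMIs, and genes near the low-count filter were not resolved at this depth.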
